A study of Mus musculus with 2 samples.

Results

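The genes described here encode the enzymes that build heme, and they were followed step by step, with their transcripts, in MEL cells, a mouse erythroleukemia line arrested at an early red cell stage in which dimethyl sulfoxide (DMSO) sets off hemoglobin synthesis. The members are Alas2, Alas1, Alad, Uros, Urod, Cpox, Ppox and Fech, chosen as genes of the pathway and found by gene identifier without its version. All 8 matched, out of 69691 rows in each gene table, and they came with 44 of the 129984 transcripts in each transcript table. The enzyme between Alad and Uros is not analysed here.

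Heme is made in 8 steps that begin and end in the mitochondrion. The first step joins glycine and succinyl-CoA and sets the pace of the pathway. It is carried out by Alas2 in red cell precursors and by Alas1, the housekeeping isozyme, in other tissues. Each later step is served by a single gene in all tissues. In red cell precursors the factor GATA1 drives several of these genes, and the start of the Alas2 mRNA carries an iron-responsive element, a hairpin that iron regulatory proteins bind to hold back translation when iron is scarce.

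The series held 1 group: total RNA of the MEL line, an immortalized line, kept in 2% DMSO for 5 days. Replicate 2 and replicate 1 were the libraries analysed, so genes are compared within a library and the libraries with each other. What DMSO did to a gene cannot be read from them, because no untreated cells were analysed here. The labels number them as biological replicates but name a single biosample for both, so differences between the libraries may be technical in part. The p-values given here cover counting error only and measure no spread between replicates. In bulk RNA, fewer cells of a kind and less RNA per cell cannot be told apart.

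Estimated counts summed to 90856320 in replicate 2 and 65109488 in replicate 1. Levels between genes are given in TPM, which divides the reads of a transcript by its length and scales every library to the same sum. Nuclear protein-coding genes held 12.7% of the TPM in replicate 2 and 13.2% in replicate 1. The median protein-coding gene, among the 13628 with TPM above 0 in either library, stood at 1.69 TPM in replicate 2 and 2.07 TPM in replicate 1. All 11 erythroid markers reached 1 TPM in both libraries, from Slc4a1, the anion exchanger of the red cell membrane, with 5.99 TPM in replicate 2 and 1.33 in replicate 1, to the alpha globin gene Hba-a2 with 5997 and 2828 TPM.

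Sequences at starts of Alas2, Alas1, Cpox and Uros that hold a motif match are shown before the values. Their part in the levels, or in differences between the libraries, was not tested. Promoter sequence is from RefSeq on GRCm38, printed 5′ to 3′ on the strand of the gene, with a motif match in capitals. Promoter windows covered 250 bases before to 50 after each RefSeq start. Of the 8 members, 7 had at least 1 window searched here, 10 windows in all. Fech was left out of this search, so its promoter was not looked at. Windows were searched on both strands for AGATAA or TGATAA, the motif of GATA factors, and for CGCATGCG, the core of the motif of NRF1, a factor of mitochondrial genes. The GATA motif occurred in 3 of the 10 windows, those of Alas2, of Cpox and of an internal start of Uros. Among all 32851 promoter windows of that length, 18.6% held it and 3.26% held it 2 times or more. The Cpox window held it 2 times, starting 86 bases before and 4 bases after the RefSeq start. The Cpox bases printed end before the second of these matches. The NRF1 core occurred at Alas1 alone among these windows, and 1.87% of all windows held it. The CACCC box, which KLF1 and related factors recognize, occurred 3 times in the Alas2 window, 4 times in the Cpox window, and 2 times and 1 time in the windows of the outer and the inner Alas1 start. Of all windows, 57.5% held it and 25.7% held it 2 times or more. The CACCC matches of Alas2 start 40, 35 and 30 bases before the RefSeq start. They lie in the first exon of Alas2-201, outside the bases printed. The Alas1 windows overlap, and the match in the inner window is also counted in the outer one. Neither Alas1 nor Alas2 had the CCAAT box, of which Ppox had 4, and 11.7% of all windows held CCAAT 2 times or more. A match is a description of letters, not a site shown to be bound. The Uros bases printed lie inside annotated exons of the transcripts Uros-209 and Uros-205.
Alas2, chrX:150547167-150547374, plus strand, upstream of Alas2-201, with the reverse complement of the GATA motif in capitals, its first base 86 bases before the RefSeq start: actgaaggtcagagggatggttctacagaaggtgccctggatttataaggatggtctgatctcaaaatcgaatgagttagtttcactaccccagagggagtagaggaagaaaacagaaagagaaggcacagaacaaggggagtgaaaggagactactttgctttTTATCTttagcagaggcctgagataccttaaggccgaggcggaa
Alas1, chr9:106247906-106247935, minus strand, in the first exon of Alas1-207, with the NRF1 core in capitals, its first base 30 bases after the outer of the RefSeq starts: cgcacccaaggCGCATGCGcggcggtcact
Cpox, chr16:58669958-58670207, plus strand, up to the RefSeq start, with the reverse complement of the GATA motif in capitals: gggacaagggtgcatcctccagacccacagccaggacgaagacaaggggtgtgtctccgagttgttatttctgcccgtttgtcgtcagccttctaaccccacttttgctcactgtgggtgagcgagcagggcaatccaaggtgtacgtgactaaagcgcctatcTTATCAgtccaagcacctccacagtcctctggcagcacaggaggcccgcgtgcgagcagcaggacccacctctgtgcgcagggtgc
Uros, chr7:133702551-133702580, minus strand, at the internal RefSeq start, with the reverse complement of the GATA motif in capitals, its first base 68 bases before that start: tctccctcagccTTATCAgtgacagagggc

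The iron-responsive element was looked for in all members. The leaders of the 8 members' coding transcripts, taken from GENCODE M21, were searched for a C, 5 bases, CAGTG, any base and 5 bases able to pair with the first 5. Alas2 was the 1 member with a match, and Alas1 had none. Among all genes with such a leader, 31 of 20834, or 0.149%, held a match. The element lies wholly within exon 1, and both coding transcripts of Alas2 hold it. The 27 bases printed are the whole first exon of Alas2-202.
Alas2, chrX:150547459-150547485, plus strand, with the CAGTG of the loop in capitals: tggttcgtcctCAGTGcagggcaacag

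At the first step, Alas2 far exceeded Alas1. Alas2 (ENSMUSG00000025270.9, chromosome X, 150547375 to 150570638, plus strand, GRCm38) stood at 176 TPM in replicate 2 and 63.2 TPM in replicate 1, a mean of 120 ± 79.8 TPM (SD, n = 2). It was the highest of the 8 members by its mean and ranked 125th in replicate 2 and 277th in replicate 1 among 21474 protein-coding genes. Its values rested on 91200 and 19455 estimated counts. Alas1 (ENSMUSG00000032786.10, chromosome 9, 106233455 to 106248654, minus strand) stood at 2.05 TPM in replicate 2 and 2.50 TPM in replicate 1, with 1387 and 1104 counts. It was the lowest member in both libraries and ranked 6226th and 6185th, close to the median protein-coding gene. The ranges of Alas2 and Alas1 over the libraries did not overlap.

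Within each library, Alas2 was at 85.9 times the TPM of Alas1 in replicate 2 and at 25.3 times in replicate 1, a mean ratio of 55.6 ± 42.9 (SD, n = 2). The direction was the same in both libraries and the size was not. Counted over transcripts annotated as protein-coding alone, the ratio was 116 in replicate 2 and 29.7 in replicate 1. Between the libraries, the odds of a read falling on Alas2 and not on Alas1 differed 3.73-fold (95% interval 3.44 to 4.05), replicate 2 over replicate 1 (two-sided Fisher's exact test on rounded counts, p = 1.40e-203). Library scaling cancels in this test, which covers counting error only and compares 2 libraries, not conditions.

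At the second step stands Alad, which joins the product of the first into porphobilinogen. Alad (ENSMUSG00000028393.6, chromosome 4, 62509169 to 62519918, minus strand) had 92.1 TPM in replicate 2 and 68.5 TPM in replicate 1, a mean of 80.3 ± 16.6 TPM (SD, n = 2). Alas2 stood at 1.91 times the TPM of Alad in replicate 2 and at 0.923 times in replicate 1. Their ranges over the libraries overlapped, so the order of the top pair was not settled by these libraries.

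Uros closes the tetrapyrrole ring as uroporphyrinogen III and Urod trims its side chains. Uros (ENSMUSG00000030979.8, chromosome 7, 133686243 to 133710072, minus strand) had 7.22 TPM in replicate 2 and 3.95 TPM in replicate 1, a mean of 5.58 ± 2.31 TPM. It was the lowest member after Alas1, at 0.0784 times the TPM of Alad in replicate 2 and 0.0576 times in replicate 1. Urod (ENSMUSG00000028684.10, chromosome 4, 116989965 to 116994413, minus strand) followed with 33.6 TPM in replicate 2 and 22.6 TPM in replicate 1. It was at 4.66 times the TPM of Uros in replicate 2 and 5.71 times in replicate 1, and the ranges of these genes did not overlap.

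The last 3 enzymes act at the mitochondrion: Cpox oxidizes side chains of the ring, Ppox oxidizes the ring itself, and Fech, ferrochelatase, puts iron into it. Cpox (ENSMUSG00000022742.5, chromosome 16, 58670292 to 58717636, plus strand) had 23.3 TPM in replicate 2 and 32.0 TPM in replicate 1. Cpox and Alas1 were the members with a lower TPM in replicate 2. Ppox (ENSMUSG00000062729.7, chromosome 1, 171275990 to 171281186, minus strand) had 10.1 TPM in replicate 2 and 10 TPM in replicate 1, the closest pair of values among the members. Fech (ENSMUSG00000024588.8) had 27.2 TPM in replicate 2 and 15.2 TPM in replicate 1. In replicate 2 the final enzyme thus stood above Cpox, and in replicate 1 below it.

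**Figure D1:**
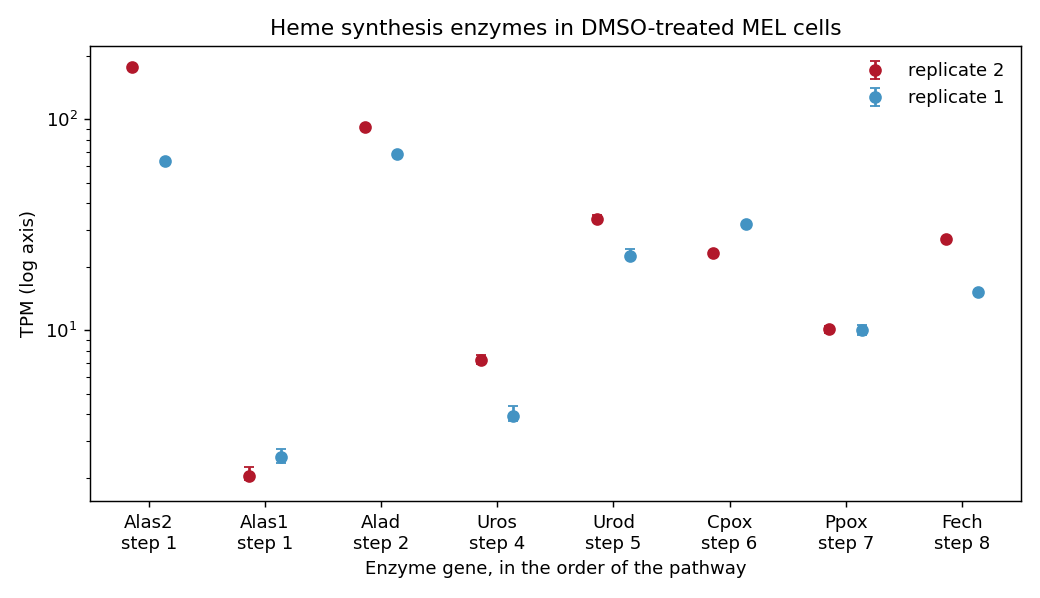
Level of each enzyme gene in TPM on a log axis, in pathway order, for replicate 2 (red) and replicate 1 (blue), with bars for the interval the authors deposited (most are smaller than the point). Alas2 and Alad lie highest, Alas1 lowest, and in replicate 1 Alad lies above Alas2.

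By mean TPM the order was Alas2, Alad, Urod, Cpox, Fech, Ppox, Uros and Alas1. Of the 7 neighbouring pairs in it, 3 had ranges that overlapped: Alas2 with Alad, Urod with Cpox, and Cpox with Fech. The remaining 4 steps down held in both libraries: Alad over Urod, Fech over Ppox, Ppox over Uros, and Uros over Alas1. The 8 members summed to 372 TPM in replicate 2 and 218 TPM in replicate 1. Alas2 held 47.4% of that sum in replicate 2 and 29.0% in replicate 1, and Alad held 24.8% and 31.4%. Set against the later enzymes, Alas2 was at 7.57 times the TPM of Cpox in replicate 2 and 1.97 times in replicate 1, the ratio that differed most between the libraries. Its ratio to Uros, 24.4 in replicate 2 and 16 in replicate 1, and to Fech, 6.48 and 4.16, differed least. The first and last enzymes and Uros thus lay closer together in their change between the libraries than Alas2 and Cpox. The median member stood at 25.2 TPM in replicate 2 and 18.9 TPM in replicate 1.

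The libraries differed at the first and last steps and at Uros. Counts were scaled by TMM and compared with an exact two-sided binomial test adjusted by Benjamini-Hochberg over 15275 rows, and a gene was called where that p lay under 0.05 and the libraries differed by 2-fold or more. Alas2, Uros and Fech were called higher in replicate 2, so 3 of 8 members were called higher and 0 lower. Over all rows tested 6.48% were called, 2.43% higher and 4.05% lower, and over protein-coding genes 2.21% were called higher. The median log2 ratio was 0.78 over the 8 members and 0.02 over all protein-coding genes tested. All 8 members passed the count minimum of 10. Reads of 2 libraries under the same treatment are what is compared, with counting error alone, so a small p says little about what a further library would show.

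Alas2 differed most, with a log2 ratio of 1.78 (95% exact interval 1.76 to 1.80), a 3.43-fold difference. Of the protein-coding genes tested, 99.3% had a lower log2 ratio. Fech followed with a log2 ratio of 1.12 (1.08 to 1.15), on 29826 counts in replicate 2 and 10076 in replicate 1. Uros stood at 1.06 (0.96 to 1.15), on 3349 and 1179 counts, with an interval that spans the 2-fold line. Scaled by the total of nuclear protein-coding genes, Uros had a log2 ratio of 0.96 and was no longer called, while 7.23% of all rows were. In TPM neither Uros nor Fech reached 2-fold, with ratios of 1.83 and 1.79, while 9.63% of the protein-coding genes compared did.

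The 5 members that were not called differed less. Urod had a log2 ratio of 0.86, Alad of 0.69 and Ppox of 0.28, all with an adjusted p under 0.05 in the binomial test and below 2-fold. Cpox was the 1 member lower in replicate 2 at that threshold, with a log2 ratio of -0.18 and an adjusted p of 2.95e-45 (binomial test with Benjamini-Hochberg adjustment). Alas1 stood at -0.12 (95% exact interval -0.24 to -0.01) with an adjusted p of 0.061 in the same exact test, and did not pass. That p ran from 0.00035 to 0.247 under other scalings and count minimums, with the direction kept. By adjusted p alone 6 members were higher and 1 lower, but 62% of all rows passed on that rule and 31.5% were higher. On the TPM scale the median protein-coding gene shifted by -0.28 (log2, replicate 2 over replicate 1). Relative to that shift Alas2 was at 1.76, Uros at 1.15, Fech at 1.12, Cpox at -0.18 and Alas1 at -0.0049.

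**Figure D2:**
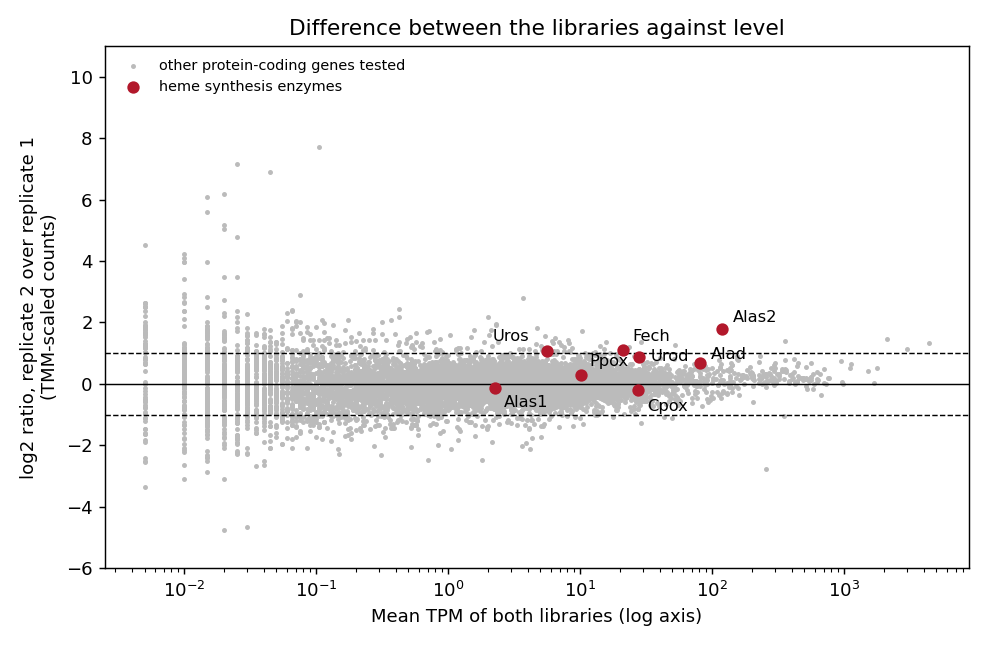
Log2 ratio of replicate 2 over replicate 1 in TMM-scaled counts against mean TPM (log axis) for 12092 protein-coding genes tested with a mean TPM above 0, the members in red and dashed lines at 2-fold. Alas2, Fech and Uros lie above the upper line, and Alas1 and Cpox just below 0.

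Part of the erythroid marker list was also higher in replicate 2. Of its 11 genes 7 were called higher and 0 lower, where 2.43% of all rows were called higher and 4.05% lower, and their summed TPM was 13590 in replicate 2 and 6537 in replicate 1. The 4 that were not called were Gata1, Klf1, Epor and Sptb. Gata1, the factor named above, had 64.3 TPM in replicate 2 and 57.4 TPM in replicate 1. The part of these genes in the differences at Alas2, Uros and Fech was not tested. Markers of hepatocytes, the other main site of heme synthesis, were at or near 0: 0 of 7 hepatocyte markers reached 1 TPM, 6 were at 0 TPM in both libraries, and Apoa1, the highest, had 0.06 TPM in each. Alb had 0 counts in both libraries, and Apoa1 had 22 counts in replicate 2 and 12 in replicate 1. None of the 7 granulocyte and macrophage, 3 mast cell and 4 lymphoid markers reached 1 TPM in both libraries, and the highest of these was Lck with 0.64 TPM in replicate 2 and 1.27 in replicate 1. Of 5 megakaryocyte markers 3 reached it, led by Pf4 with 24.7 TPM in replicate 2 and 34.1 in replicate 1, and Itga2b was called higher in replicate 2.

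A list of 20 partner genes covered carriers of substrate and intermediates, proteins that control the Alas enzymes and iron delivery. All 20 were measured, 18 reached 1 TPM in both libraries, and 0 were called between the libraries, also with DESeq2 size factors, where 6.48% of all rows tested were called by TMM. With a list of that size, 0 is near this background. On the adjusted p without a fold limit, 12 lay higher in replicate 2 and 6 lower, where 62% of all rows passed and 31.5% were higher. The log2 ratios of the 20 partner genes ran from -0.42 to 0.88, with a median of 0.14. Abcb10, a transporter of the inner mitochondrial membrane, had the highest of these ratios. The median level of the partner genes was 9.70 TPM in replicate 2 and 12.8 TPM in replicate 1. The highest in level was Tmem14c, which helps bring protoporphyrinogen into the mitochondrial matrix, with 83.8 TPM in replicate 2 and 72.5 in replicate 1. The lowest was Slc25a40, a mitochondrial carrier, with 0.49 TPM in each library.

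By level in these libraries, the protein-coding genes nearest to Alas2 were Hist1h2bf, H3f3a and Hist1h4j, at distances of 0.67, 0.84 and 0.85 in log2(TPM + 1). Their levels ran from 127 to 132 TPM in replicate 2 and from 91.7 to 105 TPM in replicate 1, below Alas2 in the first and above it in the second. The nearest to Alas1 were Rabif, Rngtt and Tmem120b, each at 2.04 to 2.06 TPM in replicate 2 and 2.50 to 2.52 in replicate 1. The likeness is of level, over 2 libraries.

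Of the 44 member transcripts, 20 are annotated as protein-coding, 16 as retained intron, 6 as processed transcript and 2 as targets of nonsense-mediated decay. At 0 TPM in both libraries were 3 of them. Cpox and Fech have a single transcript in the tables, which is coding. The share of a gene's TPM in protein-coding transcripts was 94.3% ± 0.438 for Alad, 86.9% ± 3.10 for Uros, 72.4% ± 3.15 for Urod, 62.5% ± 1.26 for Alas2, 56.2% ± 0.170 for Ppox and 49.6% ± 4.31 for Alas1 (SD, n = 2). Among 6058 protein-coding genes with several transcripts and 1 TPM or more in both libraries, the median share was 88.8% in replicate 2 and 86.2% in replicate 1. Total RNA includes unspliced and nuclear RNA, and the assignment of reads to overlapping transcripts is an estimate.

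**Figure D3:**
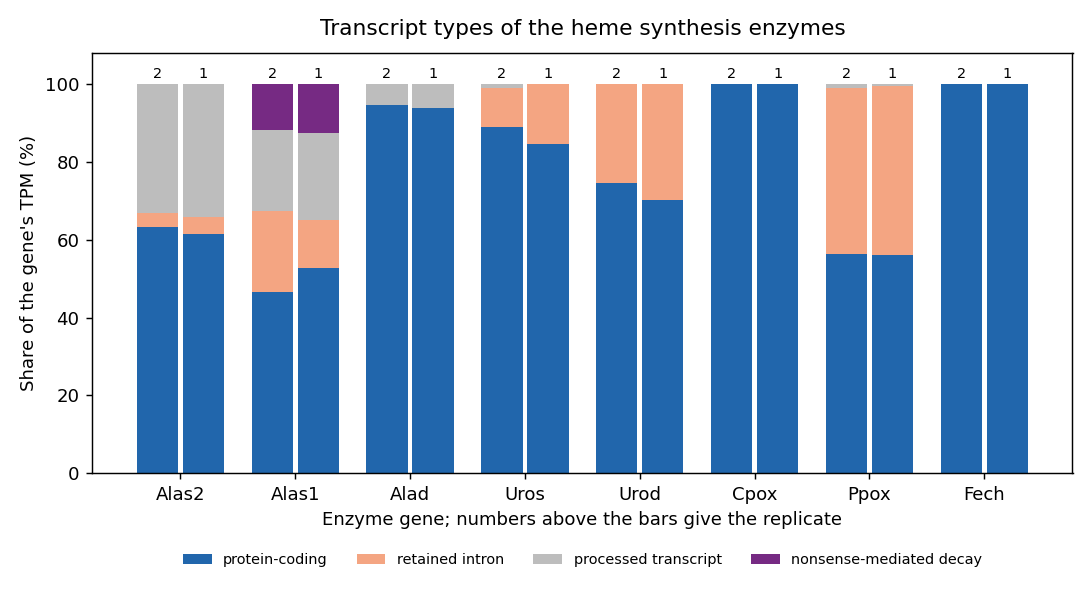
Share of each gene's TPM (percent, stacked bars from 0) by annotated transcript type, with replicate 2 left of replicate 1 for each gene. Alas1 and Ppox are the members with the smallest protein-coding part, with 49.6% and 56.2% on average.

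Alas2 was split almost evenly over 3 transcripts. Alas2-201, the longest, held 33.6% of the gene's TPM in replicate 2 and 33.8% in replicate 1. Alas2-202, which is also coding, held 29.8% and 27.8%. It differs from Alas2-201 by a start 84 bases further in and by 45 bases missing at the start of exon 3, which are 15 codons in frame. The missing bases are printed because they are what tells the coding transcripts apart inside the protein.
Alas2, chrX:150552959-150553003, plus strand, bases in Alas2-201 and absent from Alas2-202, in capitals throughout: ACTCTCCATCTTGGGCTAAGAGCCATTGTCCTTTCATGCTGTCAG

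The third, Alas2-204, is an annotated processed transcript of 569 bases made of the end of the gene. It held 33.2% of the gene's TPM in replicate 2 and 34.1% in replicate 1. By counts its share was much smaller, with 10.5% in replicate 2 and 11.1% in replicate 1, since TPM divides by an effective length of 408 and 415 bases. Of its bases 458 lie in exons of Alas2-201 and 111 do not. The coding transcripts took 88.7% of the gene's counts in replicate 2 and 87.8% in replicate 1. Alas2-203, a retained intron form, held 3.40% and 4.26% of the TPM. No Alas2 transcript changed its share by more than 1.97 points between the libraries, although the gene's counts differed 3.43-fold after scaling.

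**Figure D4:**
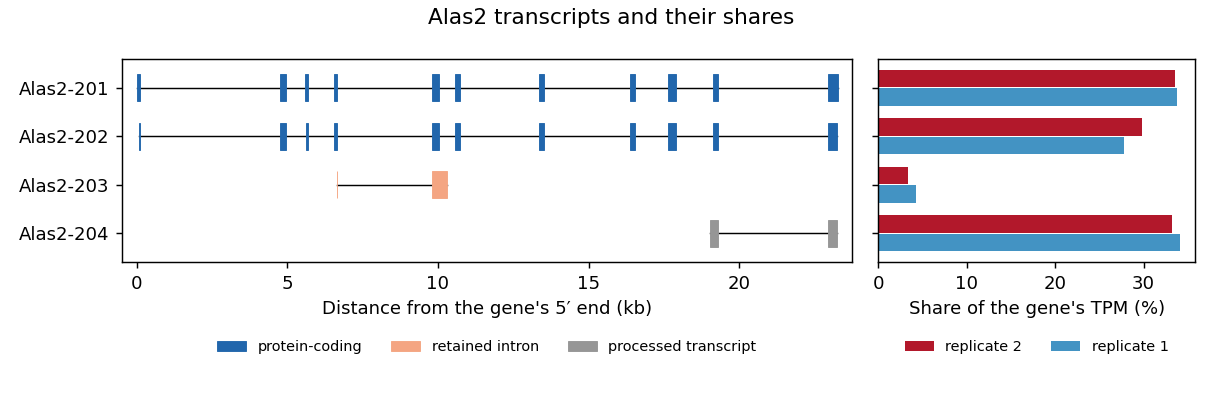
Exons of the 4 Alas2 transcripts by distance from the gene's 5′ end in kb (left, boxes, coloured by annotated type) and each transcript's share of the gene's TPM in percent (right, replicate 2 in red above replicate 1 in blue). Alas2-201, Alas2-202 and Alas2-204 each hold between 27.8% and 34.1%.

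Alas1 was spread over more transcripts, at low level. Its leading transcript, the coding Alas1-207, held 23.8% of its TPM in replicate 2 and 31.4% in replicate 1. The coding Alas1-201 held 21.01% and 20.7%, the processed transcript Alas1-206 held 20.9% and 22.4%, the retained intron form Alas1-203 held 17.8% and 11.5%, and Alas1-208, annotated as a target of nonsense-mediated decay, held 11.7% and 12.4%. The authors' posterior SD of the count was 8.64% of the count of Alas1-207 in replicate 2 and 8.11% in replicate 1, against 1.14% and 2.34% for Alas2-201. The amounts are small: Alas1-207 stood at 0.49 TPM in replicate 2 and 0.78 TPM in replicate 1. The coding transcripts of Alas1 summed to 0.96 TPM in replicate 2 and 1.31 TPM in replicate 1, against 112 and 39.0 TPM for those of Alas2. An antisense gene, 4930500F10Rik, shares 465 exonic bases with Alas1 and had 0.03 TPM in both libraries. Whether the counting used strand is not given in the sources used here, so reads of overlapping genes on opposite strands cannot be told apart. The same holds for Alas2 and Apex2, which share 311 bases (Apex2 had 3.81 TPM in replicate 2 and 3.94 TPM in replicate 1), and for Ppox and B4galt3, which share 791 bases (B4galt3 had 2.82 and 3.88 TPM).

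Uros was the member whose transcript shares differed most between the libraries. A transcript share moved by 10 percentage points or more in 1 of the 6 members with several transcripts, a share near the 19.5% of the 6058 background genes that did so. Uros-204, the leading transcript with 10 exons, held 54.8% of the gene's TPM in replicate 2 and 41.5% in replicate 1. Uros-209, a coding transcript of 371 bases whose 5′ end lies 116 bases upstream of the internal RefSeq start shown above, held 18.8% in replicate 2 and 1.87% in replicate 1. The GATA match shown above lies inside the first exon of Uros-209, downstream of its annotated 5′ end. In mouse, Uros is known to be transcribed in red cell precursors from an internal promoter. Use of that promoter in these libraries was not tested. The level of Uros-209 was 1.36 TPM in replicate 2 (the authors' deposited interval runs from 1.04 to 1.61) and 0.07 TPM in replicate 1 (up to 0.676).

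That difference rests on few reads and few distinguishing bases. Uros-209 had 114 estimated counts in replicate 2 and 3.86 in replicate 1, which is 3.41% and 0.327% of the gene's counts. Of its 371 bases, 14 lie in no other Uros transcript and 303 are shared with Uros-205, whose 5′ end lies 6557 bases upstream of that internal start. Uros-205 showed the opposite values, at 0% of the TPM in replicate 2 and 13.4% in replicate 1. By the authors' posterior means the shares of Uros-209 were 18.2% in replicate 2 and 7.96% in replicate 1, and those of Uros-205 were 0.82% and 8.29%. The retained intron form Uros-206 held 9.84% of the TPM in replicate 2 and 15.2% in replicate 1.

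**Figure D5:**
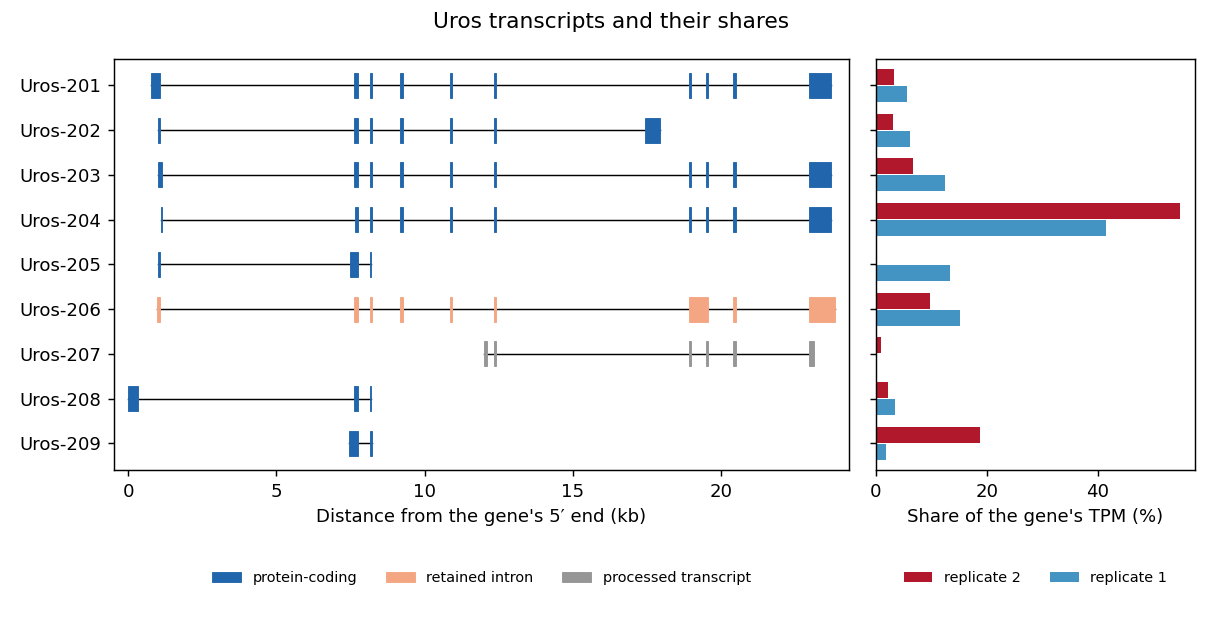
Exons of the 9 Uros transcripts by distance from the gene's 5′ end in kb (left, boxes, coloured by annotated type) and each transcript's share of the gene's TPM in percent (right, replicate 2 in red above replicate 1 in blue). Uros-209, with 2 exons inside the gene, holds 18.8% in replicate 2 and 1.87% in replicate 1, and Uros-205 shows the opposite.

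By TPM, Urod and Ppox had the largest shares in retained intron forms. By counts Uros lay above Urod, with 17.2% against 13.2% in replicate 2 and 25.1% against 16.2% in replicate 1. Urod-201 was the leading transcript of Urod with 60.0% of the TPM in replicate 2 and 57.8% in replicate 1, and the short coding Urod-204 held 14.6% and 12.4%. The 7 retained intron forms of Urod together held 25.4% in replicate 2 and 29.9% in replicate 1. For Ppox, the coding Ppox-201 held 43.8% in replicate 2 and 38.2% in replicate 1, and the coding Ppox-208 held 12.4% and 17.8%. The retained intron forms Ppox-207 and Ppox-202 held 21.1% and 13.3% in replicate 2 and 23.2% and 10.5% in replicate 1. All 5 retained intron forms of Ppox together held 42.9% of its TPM in replicate 2 and 43.5% in replicate 1, and 54.6% and 57.1% of its counts. Alad was nearly all in Alad-201, with 93.5% of the TPM in replicate 2 and 91.9% in replicate 1.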

How the data were processed

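Total RNA of 2 libraries was analysed, both of MEL cells treated with DMSO. Per the deposited readme, the authors used mm10 and GENCODE M4. Which aligner and quantifier were run is not given in the sources used here. As the file headers show, the deposited tables hold estimated counts (expected and posterior mean), a posterior SD of the count (used as a score of assignment error), TPM, FPKM and intervals of TPM per gene and transcript, and the percent of a gene's TPM in each transcript. Gene names, types and exons came from GENCODE M21 on GRCm38, matched by identifier, and 42462 of 43346 Ensembl rows matched. Of the 44 member transcripts 40 have the same length in both releases.

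Counts were rounded and scaled by TMM (edgeR 4.0.16, R 4.3.3). Rows reaching 10 counts in either library were tested with scipy 1.17.1, and log2 ratios add 0.5 to each count. With 1 library a side, no quasi-likelihood fit was possible. On simulated data the test was checked before use. Those data held counting error alone, so the check says nothing about other differences between libraries. A chi-square statistic of 369 per degree of freedom over genes shows that the libraries are not copies. The floor of a gene at 0, 3 counts, was 0.0330 CPM in replicate 2 and 0.0461 CPM in replicate 1. Without molecular identifiers reads are not independent molecules, so intervals and floors cover counting error only.

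The text names all 8 members, their transcripts with a mean share of 10 percent or more, the highest, lowest and called genes of each list, and the 3 protein-coding genes nearest to Alas2 and Alas1 in log2(TPM + 1). Further transcripts, Abcb10, the markers that were not called, and the overlapping genes were named after their values were seen. Members and lists were chosen with earlier results of these data known.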

Additional observations from a re-analysis of the deposited data

How the results depend on the processing

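The number of enzyme genes called between the libraries was 3 by TMM, where 6.48% of all rows were called. It was 3 with DESeq2 size factors (DESeq2 1.42.0), total counts and posterior mean counts, where 6.46%, 6.7% and 6.33% of all rows were called. It was also 3 with no count minimum above 0 and with 100 or more counts, where 4.49% and 3.4% were. With the total of nuclear protein-coding genes it was 2, where 7.23% of all rows were called. Uros then had a log2 ratio of 0.96 and was not called. It was 5 at 1.5-fold, where 16.1% of all rows were called, and 7 by adjusted p alone, where 62% were. Chosen after seeing the data, a ratio of 2-fold or more in TPM left 1, Alas2, as did TPM rescaled to nuclear protein-coding genes. Of the protein-coding genes compared, 9.63% reached 2-fold in TPM and 7.36% in rescaled TPM. The adjusted p of Alas1 ran from 0.00035 to 0.247 over these scalings and minimums in the binomial test.

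The median level of the enzymes, 22.1 TPM, became 90.6 in FPKM and 171 when rescaled, and that of the partner genes, 11.3 TPM, became 45.1 and 86.7. These are changes of unit. The median share in protein-coding transcripts, 79.7% of TPM, was 86.8% of counts, and that in the leading transcript, 53.5%, was 68.7%. Of 153 values recomputed for single genes, 124 stayed the same. They include levels and shares with a library left out, which cannot move by more than the SD of the 2 libraries. They also include shares of Cpox and Fech, fixed at 100% by a single transcript. A log2 ratio counted as the same where its direction and its call were kept. The tally is therefore no measure of stability. Another 28, all levels or transcript shares, moved by more than the SD of the 2 libraries. Only log2 ratios could lose a call or reverse: 1, that of Uros, lost its call and 0 reversed. The 6 genes nearest to Alas2 and Alas1 were the same with a pseudocount of 0.1.

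Leaving out a library gave a median of 25.2 TPM without replicate 1 and 18.9 without replicate 2 for the enzymes, 9.70 and 12.8 for the partner genes, an Alas2 over Alas1 ratio of 85.9 and 25.3, a protein-coding share of 81.9% and 77.4%, and a leading share of 57.4% and 49.6%. With 2 libraries each such value lies within 1 SD of the mean by construction, so it says nothing about stability. The tests between the libraries then have no value. No paired analysis was possible because the series has 1 group.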
